A study of Mus musculus with 25 samples.

Results

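The data are the read counts of 38 enzymes of amino acid catabolism in livers and in hepatoblastomas (HBs), both from FVB mice. The enzymes were chosen by name, as the genes of 11 catabolic branches, with earlier results of these data known. Each of the 38 names was matched to 1 of the 36333 genes counted. All 38 passed the filter on low counts in every comparison. The HBs had been induced with Sleeping Beauty transposon vectors, injected into the tail vein under hydrodynamic pressure, that carry Δ(90), a deletion mutant of β-catenin, and YAP S127A, a mutant of the Hippo pathway effector that stays in the nucleus. The livers came from mice that received no injection, and the ages at sampling are not given in the labels. Each tissue was sampled on a standard diet and on a diet with 10% dodecanedioic acid (DDDA), a dicarboxylic fatty acid, which the labels say was fed for 3 to 4 weeks. Each of the 4 groups held 5 libraries, with 2 males and 3 females among the standard diet livers, 3 and 2 among the standard diet HBs, 3 and 2 among the DDDA diet livers, and 1 and 4 among the DDDA diet HBs. RNA of the HBs was taken from regions that looked healthy, and each tumor is a mixture of transduced cells and whatever other cells it held. Another set of HBs, from mice kept on DDDA for longer, was not analysed here.

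Hepatocytes are the main site at which most amino acids are broken down. The nitrogen is passed by aminotransferases to glutamate and on to the urea cycle, and the carbon skeletons are oxidized or turned into glucose, ketone bodies and 1-carbon units. Several of these enzymes are zoned in the normal lobule, with Gls2, Hal and Sds known as genes of periportal hepatocytes, whereas β-catenin signaling is known to be active around the central vein.

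The counts summed to between 16548771 and 29783324 per library. By their column headers, the libraries of the standard diet share 1 flow cell and those of the DDDA diet another, except DL03 and DT3168, which share a flow cell of their own. The headers also mark the standard diet libraries as paired and trimmed, and carry no such mark for those of the DDDA diet. Diet, sequencing run and any such difference in read handling therefore cannot be told apart, and no lane held both tissues. Albumin and the other hepatocyte markers were present in every library, with 18 markers summing to 134402 to 193633 CPM (counts scaled to library size) in the livers and to 39195 to 77937 CPM in the HBs. Of these 18, 11 were lower in HBs and 7 did not pass the test on either diet. Of 7 cholangiocyte and progenitor markers tested, 7 were higher in HBs on each diet, and their list of 9 summed to 49.99 to 68.7 CPM in the livers and to 151 to 1669 CPM in the HBs. The part of cell composition in the values below was not tested, and in bulk tissue fewer cells of a type and less RNA per cell cannot be told apart.

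In standard diet livers the 38 enzymes together made up 2.07% of all TPM (a level per unit of transcript length), with a range of 1.58% to 2.52%. Hpd, the dioxygenase that follows tyrosine transamination, had the highest TPM (3318 ± 1098, SD, n = 5) and Gnmt, the glycine N-methyltransferase that consumes S-adenosylmethionine, came next (3028 ± 630 TPM). They were followed by Bhmt (1690.0 ± 272), which remethylates homocysteine with betaine, Mat1a (1560.1 ± 671), the adult liver's S-adenosylmethionine synthetase, Tat (1507 ± 506), tyrosine aminotransferase, and Tdo2 (1114 ± 389), which opens the tryptophan ring. At the other end stood Mat2a (36.8 ± 4.71 TPM), the form of the synthetase used outside the adult liver, and Mccc1 (22.2 ± 3.87 TPM), a subunit of the leucine pathway's carboxylase. The ranges of neighbors in this order overlapped except between Gnmt and Bhmt and between Mat2a and Mccc1. The lowest of the 38 lay at the 84.7th percentile of the genes with counts. Ahcy, the hydrolase that clears S-adenosylhomocysteine, ranked 36th at 40.5 ± 8.33 TPM, but this level is uncertain. Its longest transcript matched that of Gm4737 at 99.7% identity over 2083 bases, and Gm4737 carried 5608 to 45843 counts per library against 136 to 1286 for Ahcy. Transcripts of Aldh4a1, Bckdha, Bhmt, Mat2a and Sds also matched a stretch of another gene at 95% identity or more over at least 300 bases, so that their levels are less certain too. The genes matched by Aldh4a1, Bhmt and Mat2a are not among those counted. B3gnt8 carried 12 to 113 counts against 1649 to 6102 for Bckdha, and Plbd2 carried 1067 to 2759 against 3 to 5409 for Sds. Summed over Ahcy and Gm4737, the standard diet livers held 1979.5 to 2954 CPM.

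In HBs of the standard diet 37 of the 38 enzymes were lower than in livers and 1 was higher, so that all 38 passed, in edgeR's quasi-likelihood test with Benjamini-Hochberg adjustment over 13830 genes at 0.05. Over all genes tested 26.8% were lower and 28.2% were higher. The median log2 fold change of the 38 was -2.17, a 4.50-fold lower level, against 0.02 over all genes. Of the same enzymes 34 were lower on the DDDA diet, 1 was higher and 3 did not pass, where 23.4% of 13415 genes were lower and 26.3% higher. The median of the 38 was then -1.88, against 0.08 over all genes. The highest HB library lay under the lowest liver library for 36 of the 38 enzymes on the standard diet and for 33 on the DDDA diet. Among genes averaging at least 1 CPM the corresponding shares were 21.2% and 19.9%. These counts and shares hold on the CPM scale. By TPM some of the 33 overlapped on the DDDA diet, among them Mccc2 (lowest liver 65.6, highest HB 94.8) and Amt (38.4 and 57.1). Others, such as Hal (132 and 15.5), did not. The summed TPM of the 38 came to 0.785% of the total in standard diet HBs (0.502% to 1.33%) and to 0.775% in DDDA diet HBs (0.326% to 1.55%), against 1.65% in DDDA diet livers. The p-values measure the spread between libraries, which the labels do not name as separate animals.

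**Figure D1:**
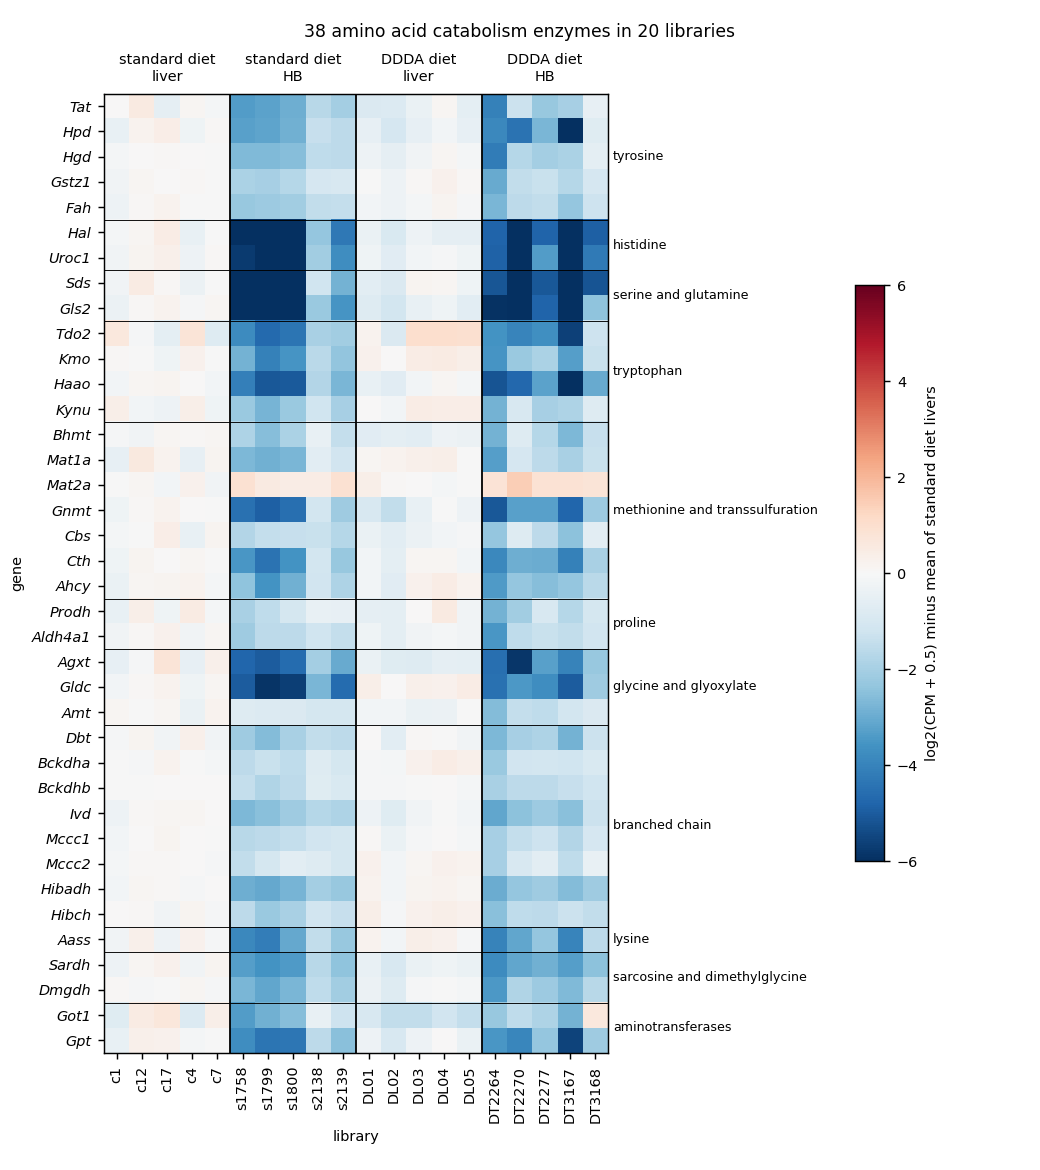
Heat map of log2(CPM + 0.5) minus the mean of the standard diet livers (color, log2 units) for the 38 enzymes (rows, by pathway) in the 20 libraries (columns, by group). The HB columns are blue in nearly all rows except Mat2a, and among them s2138, s2139 and DT3168 are paler than the others.

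Levels below are CPM on a common TMM scale, and libraries are given in the order c1, c12, c17, c4, c7 for standard diet livers, s1758, s1799, s1800, s2138, s2139 for standard diet HBs, DL01 to DL05 for DDDA diet livers and DT2264, DT2270, DT2277, DT3167, DT3168 for DDDA diet HBs. Fold changes are HB over liver and come from the fit of each diet. Where a pair of values is given, the first is that of the standard diet.

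Histidine breakdown was among the most reduced branches. Hal (chr10:93488768-93516761, GRCm38.p6 as for all positions), histidine ammonia-lyase, removes ammonia from histidine, and Uroc1 (chr6:90333238-90364551), urocanase, takes the urocanate that results. Hal was read at 386, 460.0, 576, 312 and 417 CPM in standard diet livers and at 2.60, 3.15, 1.96, 84.1 and 20.7 CPM in the HBs (log2 fold change -4.25 ± 1.004 (SE), adjusted p = 0.00380). Under DDDA it stood at 321, 223, 346, 290.4 and 289.7 CPM in livers and at 14.7, 0.978, 14.6, 0.825 and 13.7 CPM in HBs (log2 fold change -4.98 ± 0.81 (SE), adjusted p = 6.88e-04). No HB reached the range of the livers, and 2 of the DDDA diet HBs, DT2270 and DT3167, were under 1 CPM. Uroc1 stood at 670.3, 853, 934, 615 and 799.8 CPM in standard diet livers against 14.01, 11.2, 9.13, 178 and 56.96 CPM in HBs (log2 fold change -3.84 ± 0.80 (SE), adjusted p = 0.00180). Its DDDA diet values were 634, 478, 681, 735 and 649 CPM in livers and 25.6, 1.27, 74.4, 2.56 and 39.8 CPM in HBs (log2 fold change -4.42 ± 0.96 (SE), adjusted p = 0.00343). The same 2 tumors, DT2270 and DT3167, were again the lowest. The next steps of the branch, which were not among the 38, were lower as well, with Amdhd1, the imidazolonepropionase, at -3.53 ± 0.44 and -3.72 ± 0.47 (log2 fold change ± SE, standard and DDDA diet) and Ftcd, which hands the formimino group to folate, at -3.09 ± 0.50 and -2.99 ± 0.51.

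Sds and Gls2 deaminate serine and glutamine. Sds (chr5:120476547-120483932), serine dehydratase, feeds pyruvate to gluconeogenesis, and Gls2 (chr10:128194635-128210004) is the glutaminase of the adult liver. In standard diet livers Sds stood at 223, 366, 267, 204 and 253 CPM and in the HBs at 0.705, 2.16, 1.57, 112 and 35.03 CPM (log2 fold change -3.11 ± 1.14 (SE), adjusted p = 0.0368). The last 2 of these HBs, s2138 and s2139, stood far above the other 3. DDDA diet livers had 163, 142, 284, 278 and 218 CPM of Sds and DDDA diet HBs 6.88, 0.147, 7.07, 0.174 and 6.50 CPM (log2 fold change -5.65 ± 0.94 (SE), adjusted p = 7.77e-04). DT2270 and DT3167 were at 3 and 4 raw counts. The standard diet call of Sds was lost on leaving out any of 6 libraries, namely c12, c17, c7, s1799, s1800 and s2139, with adjusted p up to 0.0656, and DESeq2 gave Sds no adjusted p. Gls2 was read at 401, 533, 590.2, 478 and 557 CPM in standard diet livers and at 1.63, 4.44, 3.87, 106 and 42.5 CPM in HBs (log2 fold change -4.00 ± 1.01 (SE), adjusted p = 0.00551). DDDA diet livers stood at 294, 238, 373, 426 and 328 CPM and the HBs at 7.71, 3.47, 17.8, 1.17 and 93.8 CPM (log2 fold change -3.69 ± 1.01 (SE), adjusted p = 0.0114). Here DT3168 was far above the next HB, DT2277.

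**Figure D2:**
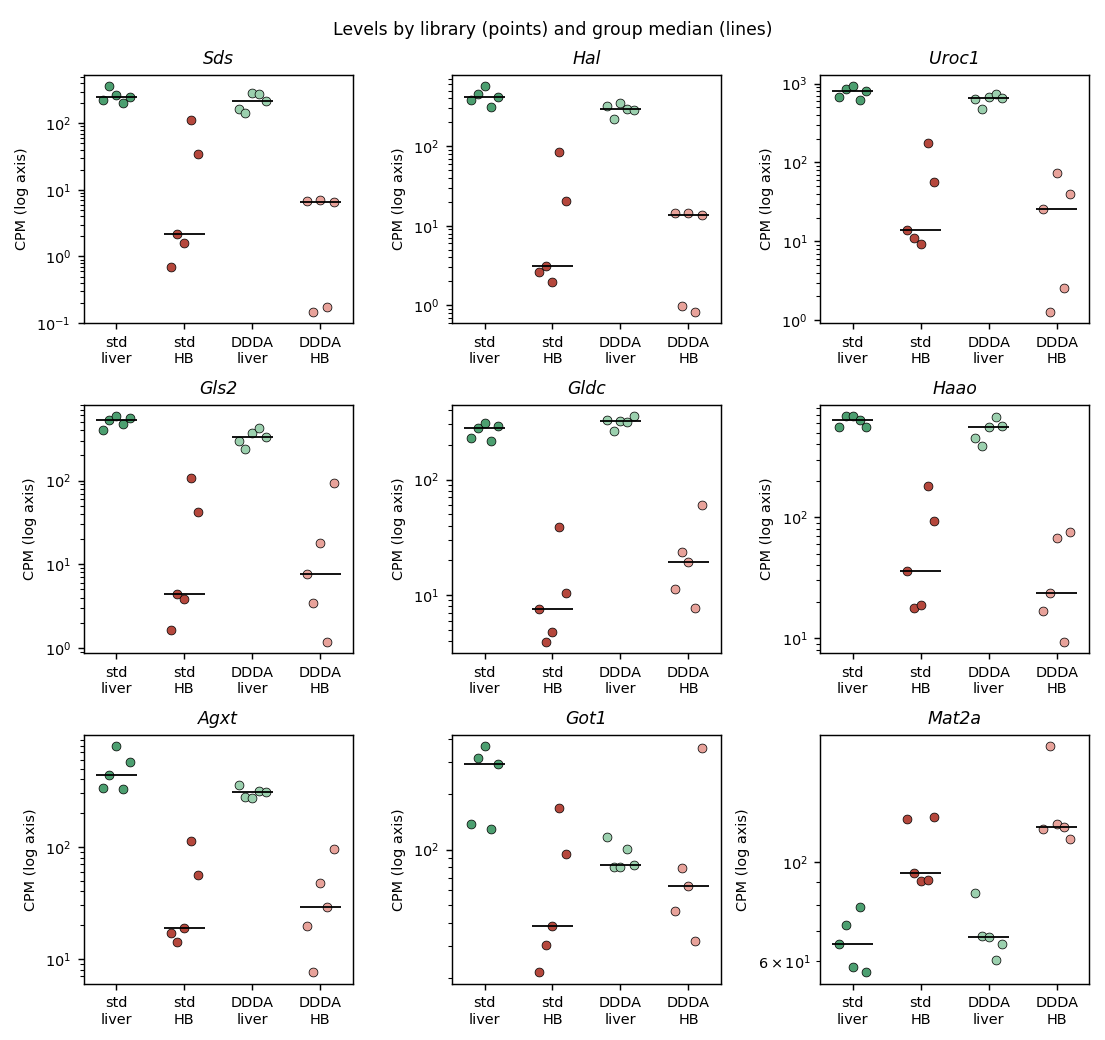
CPM (log axis) of 9 enzymes in each library (points) with the group median (line), for livers and HBs on the standard (std) and DDDA diets. For Sds, Hal, Uroc1, Gls2, Gldc, Haao and Agxt every HB lies under every liver of its diet, Got1 overlaps, and Mat2a lies above.

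Among the glycine and glyoxylate enzymes Gldc (chr19:30098441-30175441), the decarboxylating subunit of the mitochondrial glycine cleavage system, fell on both diets. On the standard diet it stood at 230.4, 279, 306, 217 and 288 CPM in livers and at 7.62, 3.92, 4.79, 38.7 and 10.4 CPM in HBs (log2 fold change -4.33 ± 0.61 (SE), adjusted p = 1.17e-04). Under DDDA it was read at 329, 264, 321, 315 and 354 CPM in livers and at 11.4, 23.6, 19.3, 7.68 and 59.9 CPM in HBs (log2 fold change -3.66 ± 0.51 (SE), adjusted p = 2.77e-04). The HBs were a full order of magnitude below the livers on both diets, except s2138 and DT3168. Amt, the aminomethyltransferase of the same complex, fell by 1.91-fold and 2.26-fold (-0.94 ± 0.12 and -1.18 ± 0.27 on the log2 scale). The difference between these subunits was not tested. Agxt (chr1:93135240-93145421), which transaminates glyoxylate with alanine, stood at 335, 441, 791, 330.1 and 574 CPM in standard diet livers and at 16.9, 14.2, 18.7, 114 and 56.6 CPM in HBs (log2 fold change -3.48 ± 0.61 (SE), adjusted p = 5.24e-04). In DDDA diet livers it was at 357, 281, 274, 316 and 306 CPM and in the HBs at 19.8, 7.58, 48.04, 28.9 and 96.04 CPM (log2 fold change -2.89 ± 0.56 (SE), adjusted p = 0.00187).

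Each of the 4 enzymes of the kynurenine route was lower on both diets. Tdo2 fell by 8.39-fold and 11.3-fold on the standard and DDDA diet (log2 fold change -3.07 ± 0.59 and -3.50 ± 0.77), Kmo, kynurenine 3-monooxygenase, by 6.31-fold and 5.77-fold, and Kynu, kynureninase, by 4.08-fold and 3.29-fold. Haao (chr17:83831348-83847958), which opens 3-hydroxyanthranilate on the way to NAD, was read at 559, 681, 687, 631 and 562 CPM in standard diet livers and at 36.03, 17.8, 18.6, 182 and 93.5 CPM in HBs (log2 fold change -3.16 ± 0.61 (SE), adjusted p = 0.00103). DDDA diet livers had 452, 389.8, 555, 671 and 569.6 CPM and the HBs 16.7, 23.4, 67.1, 9.24 and 74.8 CPM (log2 fold change -3.74 ± 0.57 (SE), adjusted p = 4.77e-04). The groups did not overlap. Of the 5 other tryptophan enzymes tested, Ido2, a relative of Tdo2 that uses the same substrate, changed the most, at -4.30 ± 0.79 and -4.98 ± 0.69.

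The tyrosine branch fell in all 5 steps on the standard diet, by 2.71-fold for Gstz1, the maleylacetoacetate isomerase, to 5.75-fold for Tat, with Hgd, homogentisate dioxygenase, at -2.10 and Fah, fumarylacetoacetate hydrolase, at -1.85 on the log2 scale. Under DDDA the last 3 steps passed the test (Hgd -1.45, Gstz1 -1.56, Fah -1.66) and the first 2 did not. The call of Hgd was lost with sex as a covariate and on leaving out any of DL04, DL05, DT2270, DT2277 and DT3167, with adjusted p up to 0.0842. Tat stood at 1213, 1238, 1679, 2387 and 1482 CPM in DDDA diet livers and at 134, 892, 459, 559 and 1594 CPM in the HBs (log2 fold change -1.10 ± 0.52 (SE), adjusted p = 0.103). Hpd stood at 1989, 1369.9, 1988, 2452 and 1958 CPM in the livers and at 189, 129, 418, 39.7 and 1688 CPM in the HBs (log2 fold change -1.94 ± 0.82 (SE), adjusted p = 0.0716). In both cases the HB DT3168 alone lay within the range of the livers. Without it the log2 fold changes were -1.63 (adjusted p = 0.0183) for Tat and -3.29 (adjusted p = 0.0020) for Hpd. DESeq2 also called both, at adjusted p = 0.0448 and 0.0150.

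Among the methionine cycle and transsulfuration genes 6 of 7 were lower on each diet. Gnmt (-2.62 ± 0.69 and -2.76 ± 0.55, log2 fold change on the standard and DDDA diet) and Cth, the cystathionine lyase that releases cysteine (-2.51 ± 0.54 and -2.84 ± 0.38), fell the most. Bhmt (-1.47 and -1.15), Mat1a (-1.75 and -1.84) and Cbs, cystathionine synthase (-1.54 and -1.01), fell less. The DDDA diet call of Cbs was lost with sex as a covariate, on leaving out any of DL03, DL04, DL05, DT2264, DT2277 and DT3167, and without DT2264 and DT2277 together, with adjusted p up to 0.118. Ahcy was at -2.19 and -2.42, and with the reads of Gm4737 added the mean log2 CPM differed by -2.36 and -2.37 (exact permutation test, two-sided, p = 0.00794 each, the smallest that 5 against 5 allows). Mat2a (chr6:72432799-72439558) was the 1 enzyme that rose. It was read at 65.5, 72.3, 58.1, 79.4 and 56.6 CPM in standard diet livers and at 125, 94.3, 90.7, 90.9 and 126 CPM in HBs (log2 fold change 0.67 ± 0.14 (SE), adjusted p = 0.00197). DDDA diet livers stood at 85.3, 68.1, 67.9, 60.2 and 65.4 CPM and the HBs at 118, 182, 121, 119.7 and 112 CPM (log2 fold change 0.94 ± 0.15 (SE), adjusted p = 5.14e-04). Every HB lay above every liver of its diet. Mat2b, the regulatory partner of Mat2a, gave -0.06 and -0.06 and did not pass the test.

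The 8 branched chain enzymes, all mitochondrial, were lower on both diets, with median log2 fold changes of -1.49 and -1.64. Hibadh, the 3-hydroxyisobutyrate dehydrogenase of valine breakdown, fell the most (-2.57 ± 0.21 and -2.48 ± 0.19), before Ivd, isovaleryl-CoA dehydrogenase (-2.15 and -1.89), Dbt, the transacylase core of the branched chain ketoacid dehydrogenase (-1.91 and -1.86), and Hibch, the hydrolase of the valine route (-1.62 and -1.84). The E1 subunits Bckdha (-1.23 and -1.40) and Bckdhb (-1.24 and -1.44) and the leucine carboxylase subunits Mccc1 (-1.37 and -1.34) and Mccc2 (-0.97 and -1.11) changed by smaller amounts. Bckdk, the kinase that switches the dehydrogenase off, stood at 0.19 (adjusted p = 0.267) on the standard diet and 0.48 (adjusted p = 0.0136) on the DDDA diet, where it rose. Ppm1k, the phosphatase that switches it on, was lower at -2.73 and -2.84. Both were named after their values were seen.

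The enzymes of lysine, sarcosine, dimethylglycine and proline breakdown were lower too. Aass, the bifunctional first enzyme of lysine breakdown, gave -2.66 and -2.77, and the mitochondrial demethylases Sardh and Dmgdh, which release 1-carbon units from sarcosine and dimethylglycine, gave -2.68 and -2.54 and -2.33 and -1.94. The proline enzymes had the smallest median fall of the branches on the standard diet (-1.28). Prodh, proline dehydrogenase, was at -1.01 and -1.45 and Aldh4a1, which completes the step to glutamate, at -1.55 and -1.31. Pycr1, which runs proline synthesis in the opposite direction and is not among the 38, rose at 2.49 ± 0.30 and 2.27 ± 0.49. By place in the cell, the median was -2.22 for 20 cytosolic and -1.91 for 17 mitochondrial enzymes under standard feeding, and -1.89 and -1.86 under DDDA.

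**Figure D3:**
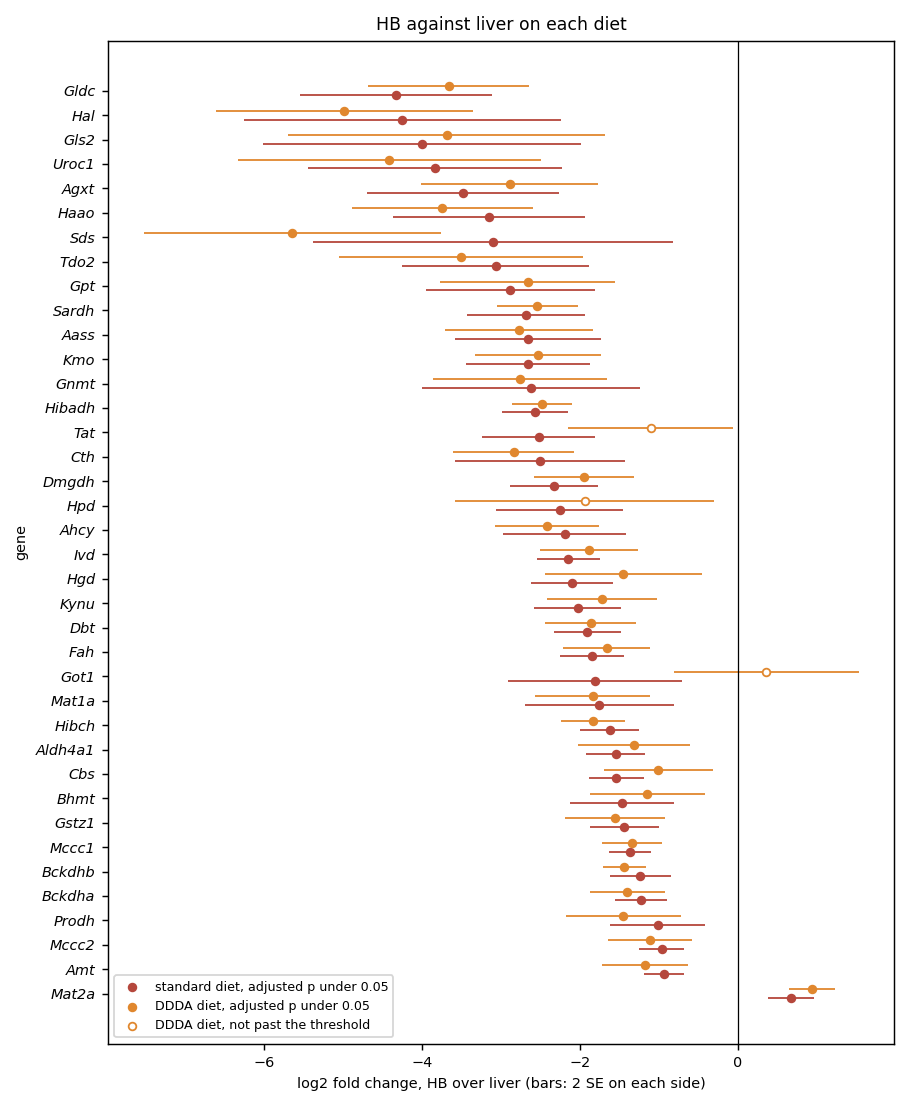
Log2 fold change of HB over liver with 2 SE on each side (bars) for the 38 enzymes on the standard diet (red) and the DDDA diet (orange), ordered by the standard diet value. Filled points passed the test, and the open points are Tat, Hpd and Got1 on the DDDA diet.

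The aminotransferases Got1 and Gpt have mitochondrial counterparts, Got2 and Gpt2, and Mat2a is the isozyme of wider tissue distribution beside the liver enzyme Mat1a. The shares below are percentages of the summed TPM of a pair. Mat2a made up 3.48, 1.82, 1.88, 4.12 and 1.92% of Mat2a and Mat1a in standard diet livers and 23.9, 21.3, 18.97, 5.14 and 9.73% in HBs. On the DDDA diet its share was 2.93, 2.20, 2.06, 1.80 and 2.52% in livers and 31.1, 12.5, 12.4, 15.05 and 9.92% in HBs. The groups did not overlap, and s2138 was the HB nearest to the livers.

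Gpt, the cytosolic alanine aminotransferase, fell by 7.37-fold and 6.34-fold on the standard and DDDA diet. Its levels were 367, 623, 594, 459.9 and 489.7 CPM in standard diet livers, 37.5, 23.5, 24.2, 169.9 and 86.7 CPM in the HBs, 402, 259, 406, 510.3 and 375 CPM in DDDA diet livers and 43.9, 32.4, 101, 10.03 and 112 CPM in the HBs. On the TMM scale Gpt2 fell by 1.59-fold and 1.55-fold, from medians of 672 and 605 CPM in livers to 328 and 378 CPM in HBs. By TPM its median on the DDDA diet was 150 in livers and 187 in HBs, so that its direction there depends on the scale. The Gpt2 share of the pair was 17.01% to 36.9% in livers and 46.0% to 92.3% in HBs. Got1 (chr19:43499752-43524605), the cytosolic aspartate aminotransferase, stood at 138, 314, 365, 129 and 292 CPM in standard diet livers and at 21.5, 30.4, 38.6, 167 and 94.8 CPM in the HBs (log2 fold change -1.80 ± 0.55 (SE), adjusted p = 0.0157), with s2138 inside the range of the livers. Under DDDA the livers were at 117, 79.99, 80.2, 101 and 82.7 CPM and HBs at 46.6, 79.6, 63.1, 31.6 and 356 CPM (log2 fold change 0.36 ± 0.59 (SE), adjusted p = 0.630). On the CPM scale DT3168 lay above every DDDA diet liver and the other 4 HBs lay under the lowest of them. Without DT3168 Got1 was lower in HBs (-0.72, adjusted p = 0.0357). By TPM the Got1 median on the DDDA diet was 64.0 in livers and 86.4 in HBs. Its direction there, and the place of the other HBs under the livers, thus depend on the scale. Got2, its mitochondrial counterpart, was lower at -1.38 and -1.19, and its share of the pair overlapped between livers and HBs on both diets.

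**Figure D4:**
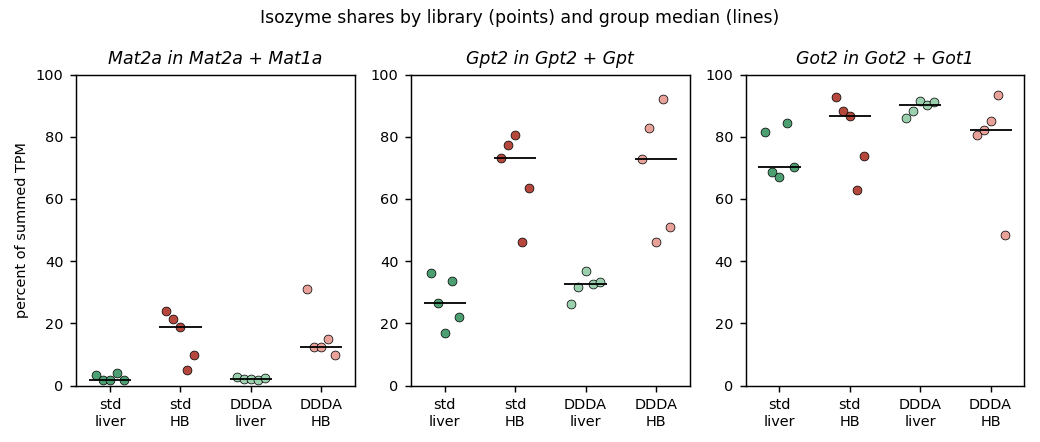
Share (percent of the summed TPM of the pair) of Mat2a, Gpt2 and Got2 in 3 isozyme pairs, for each library (points) with the group median (line). The shares of Mat2a and Gpt2 are higher in every HB than in every liver of its diet, and those of Got2 overlap.

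Of 64 further enzymes listed for the same pathways, 58 were tested between HBs and livers. On the standard diet 49 were lower, 5 were higher and 4 did not pass, with a median log2 fold change of -1.36. Under DDDA 45 were lower, 6 were higher and 7 did not pass, with a median of -1.25. The largest changes on both diets were those of Ido2, Amdhd1 and Ftcd given above. Those that rose on the standard diet included Pycr1, Csad, of taurine synthesis (1.15), and Crym, a ketimine reductase (1.10), named after their values were seen. On the DDDA diet Crym rose as well (2.03), whereas Csad stood at -0.42 (adjusted p = 0.580) and did not pass. Csad ranged from 52.1 to 434 CPM among the standard diet livers alone.

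Promoter sequence was compared for 31 of the 38 genes, with 33 start sites in RefSeq (GRCm38.p6). Gls2, Dbt, Mat1a, Cth, Gpt, Kynu and Sds had no match in the table used. The median ratio of observed to expected CpG in the 250 bases before the start was 0.439 for the 33 and 0.374 for all 32851 promoters. The 3 promoters shown are those of the enzyme that rose and of the histidine pair, with CpG dinucleotides in capitals and the strand of the gene read 5′ to 3′.
Mat2a (chr6:72439557-72439806, minus strand): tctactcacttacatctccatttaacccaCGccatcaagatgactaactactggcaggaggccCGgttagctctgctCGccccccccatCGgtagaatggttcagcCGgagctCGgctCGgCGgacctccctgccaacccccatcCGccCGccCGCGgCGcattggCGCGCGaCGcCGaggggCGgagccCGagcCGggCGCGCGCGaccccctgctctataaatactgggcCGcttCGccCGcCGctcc
Hal (chr10:93488518-93488767, plus strand): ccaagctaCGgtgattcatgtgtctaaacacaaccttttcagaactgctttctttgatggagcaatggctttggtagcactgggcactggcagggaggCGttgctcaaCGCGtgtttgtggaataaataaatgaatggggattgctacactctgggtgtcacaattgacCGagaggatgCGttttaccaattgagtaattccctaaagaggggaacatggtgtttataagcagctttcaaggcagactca
Uroc1 (chr6:90333039-90333288, plus strand): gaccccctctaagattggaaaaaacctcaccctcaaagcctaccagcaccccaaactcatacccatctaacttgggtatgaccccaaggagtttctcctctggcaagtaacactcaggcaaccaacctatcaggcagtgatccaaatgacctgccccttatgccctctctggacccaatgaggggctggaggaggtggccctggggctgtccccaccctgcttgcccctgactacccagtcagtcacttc
The Mat2a promoter held 29 CpG (observed over expected 1.06, the highest of the 33), that of Hal 6 (0.476) and that of Uroc1 none (0, the lowest). The window shown for Uroc1 runs past the first base of the gene span given above (90333238), so that its last bases lie within that span. Across the 29 genes with 1 listed start, Spearman's rho between this ratio and the log2 fold change was 0.421 on the standard diet and 0.381 on the DDDA diet. Genes are not independent replicates and share the same 10 libraries within a diet, so that this is a description only. TATAAA was found on either strand of 4 of the 33 promoters (12.1%, against 12.4% of all), among them Mat2a, 32 to 27 bases before the start, and Hal, 28 to 23 bases before it on the opposite strand. ATCAAAG, a TCF/LEF motif, was in 2 of 33 (6.06% against 3.21%), those of Hal and Haao. GTTAAT, an HNF1 half-site, was in 2 (6.06% against 6.43%) and TTGCNNCAA, a C/EBP motif, in 1 (3.03% against 1.74%). CAAAGTCCA (HNF4) and TGACGTCA (CREB) were in 0 of 33, against 0.384% and 1.55% of all. The letters CAAAG are common to the HNF4 and TCF/LEF motifs.

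The HBs differed among themselves more than the livers did. The median SD of log2 CPM over the 38 enzymes was 0.75 in standard diet HBs and 0.86 in DDDA diet HBs, against 0.22 and 0.24 in the livers. Over all genes averaging at least 1 CPM it was 0.26 and 0.34 in HBs, and 0.23 and 0.22 in livers. The highest standard diet HB exceeded the lowest by a median of 3.44-fold, and by 159-fold for Sds. In DDDA diet HBs the median ratio was 4.30, and the highest was 80.0 for Gls2. In standard diet HBs s2138 was the highest library for 32 of the 38 enzymes, and s1799 and s1758 were the lowest for 20 and 14. In DDDA diet HBs DT3168 was the highest for 29, and DT2264 and DT3167 were the lowest for 23 and 11. Mean log2 CPM of the 18 hepatocyte markers was 11.29 in s2138 and 11.21 in s2139, against 10.40 to 10.82 in the other 3 standard diet HBs. It was 11.07 in DT3168, 9.97 in DT2264 and 10.95 to 10.99 in the other 3 DDDA diet HBs. DT2264 also held 3017 CPM of the 10 stellate cell and fibroblast markers, against a median of 176 in its group, and DT3168 was read on another flow cell than the other DDDA diet HBs. The part of these differences in the enzymes' values was not tested.

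In HBs no difference between the diets passed the test for any of the 38 enzymes. None of the 38 was called by edgeR or by DESeq2, where 0.199% of 14082 genes were lower and 0.0994% higher on the DDDA diet. None of them had an unadjusted p under 0.05 in edgeR, against 16.3% of all genes tested. The median log2 fold change of the 38, DDDA over standard diet, was -0.10. The ranges of the diets overlapped for all 38. Among 13148 genes averaging at least 1 CPM, 1.9% lay wholly lower and 2.61% wholly higher on the DDDA diet, so that overlap was the usual case. The log2 fold change largest in size was that of Sds, at -2.84 ± 1.45 (adjusted p = 0.362). Given the spread between tumors, an SE of this size leaves changes of several fold undetectable for Sds. The interaction of diet and tissue was called for 0 of the 38 (edgeR and DESeq2), and for 0% of 14502 genes in either direction, and 2 of the 38 had an unadjusted p under 0.05, against 6.05% of all genes tested, which is about the share of the 38. These were Got1 (2.14 ± 0.85, adjusted p = 0.809) and Tat (1.39 ± 0.65, adjusted p = 0.812).

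In livers 3 enzymes were lower on the DDDA diet and none was higher, where 3.07% of 12803 genes were lower and 4.27% were higher. The 3 were Got1, Bhmt and Gls2, and 15 of the 38 had an unadjusted p under 0.05, against 24.8% of all genes tested. Got1, whose levels by library are given above, showed a log2 fold change -1.41 ± 0.28 (SE), adjusted p = 0.0176. Its DDDA diet livers, at 79.99 to 117 CPM, all lay under the standard diet livers, at 129 to 365 CPM. Within the standard diet the 3 females stood at 292 to 365 CPM and the 2 males at 129 and 138 CPM. Bhmt was read at 2114, 1893, 2425, 2334 and 2386 CPM on the standard diet and at 1385, 1475, 1436, 1801 and 1731 CPM on the DDDA diet (log2 fold change -0.50 ± 0.12 (SE), adjusted p = 0.0313), again with no overlap. These were the 2 of the 38 whose diets did not overlap. Among 12325 genes averaging at least 1 CPM, 3.96% lay wholly lower and 5.23% wholly higher on the DDDA diet. Gls2 gave a log2 fold change -0.62 ± 0.15 (SE), adjusted p = 0.0374, and DL04, at 426 CPM, lay above c1, at 401 CPM. None of the 3 calls was made without DL03, nor in a fit of all 20 libraries. The calls of Bhmt and Gls2 were also lost on leaving out c17, c4, c7, DL01 or DL05, that of Bhmt without c1 and that of Gls2 without c12 or DL02 and with no filter on low counts. Bcat2, the branched chain aminotransferase of tissues other than liver, was the 1 call among the 58 further enzymes tested (log2 fold change -0.70 ± 0.09 (SE), adjusted p = 0.00558).

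Sex was compared across the 10 livers with diet as a covariate, with 5 males and 5 females. Tdo2 and Kynu, of the kynurenine route, were higher in males and Got1 was lower, where 6.24% of 13341 genes were higher in males and 8.67% were lower. Tdo2 stood at 1737, 1888, 2263, 2262 and 2170.2 CPM in the males c1, c4, DL03, DL04 and DL05 and at 1060, 731, 657, 1291 and 606 CPM in the females c12, c17, c7, DL01 and DL02 (log2 fold change 1.19 ± 0.20 (SE), adjusted p = 0.00317). Kynu stood at 221, 223, 233, 228 and 224 CPM in the same males and at 154, 140, 145, 173 and 155 CPM in the females (log2 fold change 0.54 ± 0.08 (SE), adjusted p = 0.00166). For both genes every male lay above every female on each diet. The share of all genes separated by sex in this way was not counted. Got1 (log2 fold change -0.72 ± 0.20 (SE), adjusted p = 0.0345) was lower in the males of the standard diet, whereas on the DDDA diet the females, at 117 and 79.99 CPM, enclosed the males, at 80.2, 101 and 82.7 CPM. Its call was lost on leaving out any of 8 libraries, c1, c12, c17, c4, c7, DL01, DL03 and DL05. Of the 58 further enzymes tested, 11 were higher and 2 were lower in males, the largest being Csad (1.60) and Acmsd, which diverts the kynurenine route from NAD (1.07). All 7 macrophage markers were lower in male livers, at 193 to 277 CPM summed against 371 to 693 CPM in females, and their part in these differences was not tested.

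**Figure D5:**
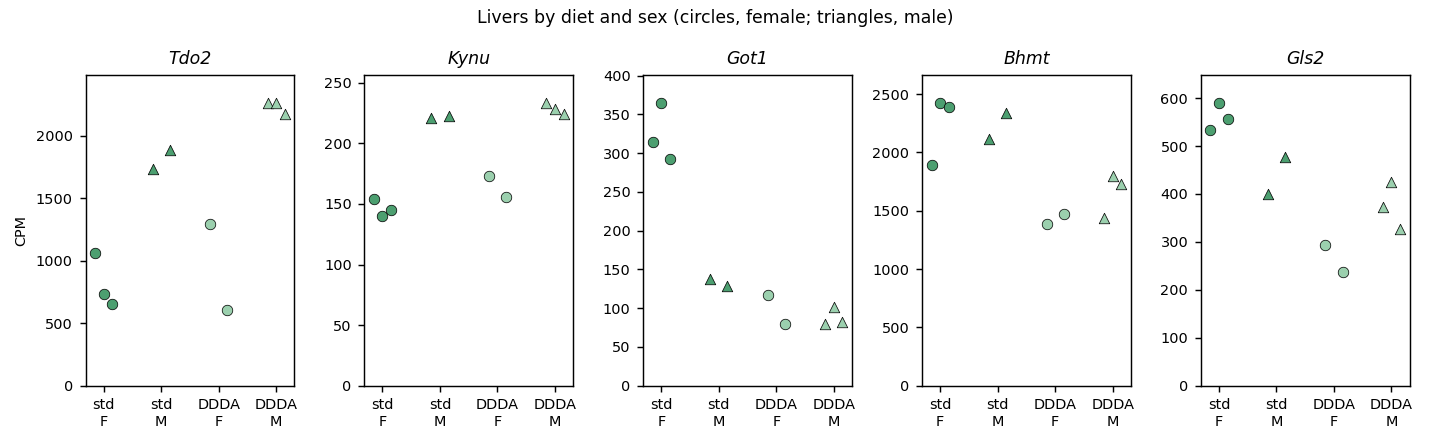
CPM of Tdo2, Kynu, Got1, Bhmt and Gls2 in the 10 livers by diet and sex (circles, females, and triangles, males). Males lie above females for Tdo2 and Kynu on each diet, and Got1 is high in the 3 standard diet females, at 292 to 365 CPM.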

How the data were processed

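RNA-Seq counts of 20 libraries were used, and 5 libraries of long-term DDDA diet HBs were not analysed here. The authors deposited 1 table with whole-number counts per gene, with no normalization, and TPM, which they had scaled by transcript length and library total. The submitters' processing notes name GRCm38.p6, while the aligner is not given in the sources used here. The table's RPKM, CPM, group means, fold changes and p-values by the authors were not used.

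The test of the counts was the quasi-likelihood F-test of edgeR 4.0.16, run in R 4.3.3 with limma 3.58.1, after filtering by filterByExpr and scaling by TMM, over all genes kept, with Benjamini-Hochberg adjustment and a threshold of 0.05. Each comparison used its 2 groups. The diet response used 4 groups, and the sexes were compared in the 10 livers with diet as a covariate. The test was checked on simulated counts. Levels are CPM on a TMM scale over 20 libraries. Overlap and exact permutation tests (scipy 1.17.1) used these CPM, the latter as log2(CPM + 0.5). Near-identical transcripts (95% identity over 300 bases) were sought by blastn in GENCODE transcripts. No 2 libraries of a group agreed within sampling noise.

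The members and lists were chosen with earlier results of these data known. Values per library are given for the 5 largest falls and every rise between HBs and livers on each diet, for each call in the other comparisons and for isozyme pairs, and up to 3 further enzymes are named per comparison by size of change. A few further enzymes are counted but not reported here. Alternatives were DESeq2 1.42.0, RLE scaling, no filter, a joint fit of all 20 libraries, a term for sex, each library left out, and DT2264 and DT2277 left out together. Dropping DL03 and DT3168, and adding Gm4737 to Ahcy, were chosen after seeing the data.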

Additional observations from a re-analysis of the deposited data

Results flagged for a closer look

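In a group of 5 libraries, a value was set apart when its gap to the nearest of the others, on the log2(CPM + 0.5) scale, exceeded 0.71 of the group's range. This held for 9 of 152 combinations of enzyme and group, where chance gives about 1 in 20.

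The HB DT2264 stood below the other DDDA diet HBs for Aldh4a1 (83.8 CPM against 335 to 429, gap over range 0.849), Bckdha (65.5 against 137 to 166, 0.792) and Hibch (14.4 against 27.9 to 33.7, 0.779). The HB DT2270 stood above them for Mat2a (182 CPM against 112 to 121, 0.839). The liver DL02, a female, stood below the other DDDA diet livers for Hibch (80.5 CPM against a highest of 107, 0.771), Sardh (677 against 953 to 1076, 0.739), Hibadh (372 against 458 to 494, 0.729) and Aldh4a1 (637 against 802 to 879, 0.718). It was the lowest DDDA diet liver for 31 of the 38 enzymes. The liver c1 stood below the other standard diet livers for Ivd (248 CPM against 310 to 329, 0.783).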

How the results depend on the processing

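The count of enzymes lower in HBs was 36 to 37 on the standard diet over the edgeR alternatives and 31 to 37 on the DDDA diet over all alternatives, and 1 enzyme was higher in each. No enzyme was called for diet in HBs or for the difference in diet response under any alternative run. The 3 calls for diet in livers became 7 with DESeq2, 0 in the fit of all 20 libraries and 0 without DL03 and DT3168, and ranged from 0 to 3 with 1 library left out. The 2 enzymes higher in male livers became 4 with DESeq2. The 1 lower enzyme became 0 without DL03 and DT3168, and 0 to 2 with 1 library left out. The log2 fold change of Got1 between HBs and livers on the DDDA diet ranged from -0.72 to 0.60 with 1 library left out. It was -0.77 without DL03 and DT3168, and DT3168 alone carried the sign in these fits. Between HBs and livers on the standard diet DESeq2 gave an adjusted p for 34 of the 38 and called 33 of them lower and 1 higher. It gave none for Sds, Gls2, Gnmt and Cth, whose log2 fold changes in it were -3.12, -4.01, -2.63 and -2.52. On the DDDA diet, of 17 alternatives, Cbs lost the call in 8, Hgd in 6, Bhmt in 2 and Gls2 in 1, with adjusted p up to 0.118. The cause was not tested. No alternative used TPM, and the sizes of the falls and the overlap between groups depend on the scale. On the DDDA diet the mean TPM of Cbs was 320 in livers and 285 in HBs. That of Bhmt was 1147.5 in livers and 921 in HBs. In the fits their log2 fold changes were -1.01 and -1.15. No paired analysis was possible because the libraries share no replicate numbers across groups. Counts of 3 and 4 for Sds in DT2270 and DT3167 limit its fold change, and the spread between HBs limits what the diet comparison can show.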
